A study of Mus musculus with 23 samples.

Results

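H19 and Igf2 are 2 of the 26183 genes in the deposited tables, and they were chosen by name. They lie 72.62 kb apart on chromosome 7 and share one imprinting control region, which carries DNA methylation on the paternal copy. They were described here across 23 whole mouse embryos and set against Meg3 and Dlk1, the matching pair of genes in the Dlk1-Dio3 domain, whose control region is also methylated on the paternal copy. Both genes were among the most abundant transcripts of the embryos. Neither was called changed in any genotype, while Meg3 rose and Dlk1 fell in the embryos without Zfp57. Neither H19 nor Igf2 had a single read that could be assigned to a parent.

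RNA was sequenced from E13.5 (mid-gestation) embryos, one library per embryo, to ask how imprinted genes respond when ZFP57 is missing. This zinc finger protein binds imprinting control regions and preserves their methylation. The groups were M+Z+ (6 female and 4 male embryos), in which Zfp57 is present in mother and embryo; M-Z+ (3 female and 3 male), which lack the maternal supply but hold a functional paternal copy; and M-Z- (4 female and 3 male), which lack both. All embryos were 129/DBA hybrids. Mothers of M-Z+ and M-Z- embryos were 129 mice homozygous for a deletion allele of Zfp57, and fathers were heterozygous for it on a mainly DBA/2J background. In the sample titles M-Z- embryos are Zfp57-/-, while the notation Zfp57-/+ is shared by the other two genotypes. The genotype of the M+Z+ mothers and the litters were not given for the embryos sequenced here, so embryos may share a litter and p-values measure the spread between these embryos.

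Igf2 encodes a growth factor that signals through the type 1 IGF receptor and drives growth before birth. H19 is a long noncoding RNA and the host of miR-675. In the textbook account, CTCF binds the unmethylated maternal control region and keeps the shared enhancers from Igf2, so H19 is made from the maternal copy, while methylation of the paternal copy silences H19 and lets the enhancers reach Igf2.

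In the mm9 build H19 spans chr7:149761435-149764051 on the minus strand, with 5 exon blocks and an exon length of 2288 bases. Igf2 spans chr7:149836673-149852721 on the same strand, with 7 exon blocks and an exon length of 4528 bases. Mir675 lies inside the first exon block of H19. Mir483 lies in an intron of Igf2, between its exon blocks 5 and 6. Igf2os runs on the opposite strand, and its first exon block overlaps the second one of Igf2. The mature miRNAs that the 2 genes host are shown because they are the small products read from them. Their sequences are from RefSeq (GRCm38.p6, chromosome 7, minus strand), with the seed, bases 2 to 8, in capitals:
mmu-miR-675-5p: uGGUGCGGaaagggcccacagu
mmu-miR-675-3p: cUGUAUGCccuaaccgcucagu
mmu-miR-483-5p: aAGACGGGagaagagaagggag
mmu-miR-483-3p: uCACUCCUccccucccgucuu
All 4 seeds differ.

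The stretch upstream of H19 is shown because it holds the control region that both genes share. The CTCF motif was searched on both strands as CCGCG, any base, GG, any base and GGCAG in the 5000 bases before H19, and it occurred 3 times, each time on the H19 strand. The 3 sites are printed 5′ to 3′ on the minus strand of mm9, with the motif in capitals:
chr7:149766206-149766235: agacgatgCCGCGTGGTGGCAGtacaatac
chr7:149766661-149766690: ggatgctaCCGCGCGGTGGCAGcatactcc
chr7:149767931-149767960: gggagttgCCGCGTGGTGGCAGcaaaatcg
The nearest base of each motif lies 2163, 2618 and 3888 bases before H19. Of 25980 windows of the same length before genes, that of H19 included, 0.0693% held at least 1 match, and the 1 other window with 3 was that of Mir675, which covers the same sites. The share is that of this single strict string, so it does not give how often CTCF motifs of other letters lie before genes. The ZFP57 motif TGCCGC occurred 6 times on both strands of the H19 window, and 0.25% of the windows held as many. Of the 3 sites shown, the first and the third also contain a TGCCGC that overlaps the CTCF motif. The window before Igf2 held 0 CTCF matches and 1 TGCCGC, which 39.4% of the windows held. These matches are letters in the reference genome, and binding was not measured.

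Each embryo had a total of 15.2 to 24.1 M counted reads. Zfp57 itself was at 52.7 to 99.1 counts per M reads (CPM) in the female M+Z+ embryos and at 31.9 to 34.0 CPM in the female M-Z- embryos, so reads of the gene remained in the embryos labelled as lacking it. It was lower in M-Z- than in M+Z+ embryos by the edgeR quasi-likelihood test (log2 change -1.02 in females and -1.33 in males, adjusted p 0.000399 and 4.69e-05). Replicates 1 to 3 of the M+Z+ embryos stood apart from the other libraries in both sexes. In these 6 embryos 10.8% to 11.3% of the H19 counts lay over Mir675, against 8.78% to 10.3% in the other 17. The female M+Z+ replicates 1 to 3 were also higher in H19 than replicates 4 to 6, so some results against M+Z+ are also given below with each set of M+Z+ libraries on its own. The second set holds 1 embryo in males, replicate 4, whose spread in a fit is taken from the other groups. The labels name no batch. In the paper the M+Z+ embryos carry 2 series of names, F1’ to F3’ and F1 to F3 in females. The male names are M1’ to M3’ and M1. How these names map to the replicate numbers was not given, and the part of this split in the results was not tested. Male M-Z- replicate 2 stood apart in its erythroid markers, which summed to 29861 CPM against 13992 and 14261 CPM in the other males of its group.

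H19 ranked 4th and Igf2 6th of all genes by mean CPM. H19 lay between 5376.5 and 8484 CPM over the 23 embryos, a 1.58-fold range. Igf2 lay between 2883 and 4168 CPM, a 1.45-fold range. Meg3 spanned 3.65-fold and Dlk1 8.12-fold over the same embryos. Together H19 and Igf2 took 0.940% to 1.19% of all counts. Per length, in transcripts per M (TPM), H19 was at 5314 to 7591 TPM and Igf2 at 1427 to 2120 TPM, so H19 was 2.60 to 5.32 times as abundant as Igf2 in every embryo. By mean TPM H19 ranked 10th and Igf2 56th of all genes. Because whole embryos were used, fewer cells that express a gene and less RNA per cell cannot be told apart.

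In the female M+Z+ embryos H19 was at 6299.7, 7446 and 7753 CPM in replicates 1 to 3 and at 5487, 5538 and 5706 CPM in replicates 4 to 6. The female M-Z+ embryos had 5912, 6074 and 5377 CPM. The female M-Z- embryos had 5649.6, 5724, 7751 and 7278 CPM. The 3 female groups overlapped, and the spread within M+Z+ covered nearly all of both other groups. In the males H19 was at 6876, 6797, 7753 and 6564 CPM in M+Z+. It was at 7038, 6899 and 6830.0 CPM in M-Z+ and at 6406, 8484 and 7924 CPM in M-Z-. Of the 3 male M-Z- embryos, 2 were above all M+Z+ males and 1 was below them all.

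H19 was not called in any genotype comparison. The call used edgeR with a Benjamini-Hochberg adjusted p below 0.05 over all genes tested and a log2 change of at least 0.5. In female M-Z- against M+Z+ embryos its log2 change was 0.05 (95% interval -0.19 to 0.28, adjusted p 0.894), in a comparison that called 0.563% of all 16871 genes tested. The sign depended on which M+Z+ embryos entered: the log2 change was -0.13 against replicates 1 to 3 and 0.25 against replicates 4 to 6, with adjusted p of 0.516 and 0.220. In male M-Z- against M+Z+ embryos it was 0.16 (95% interval -0.09 to 0.42, adjusted p 0.490), where 0.39% of 16664 genes were called. It was 0.13 against M+Z+ replicates 1 to 3 and 0.28 against replicate 4 alone. With single embryos left out the male value ran from 0.03 without M-Z- replicate 2, the erythroid-rich library, to 0.29 without M-Z- replicate 1 (adjusted p 0.157). In M-Z+ against M+Z+ embryos H19 was at -0.15 in females (95% interval -0.41 to 0.11, adjusted p 0.807) and at -0.04 in males (-0.29 to 0.22, adjusted p 0.962), with 0.0593% and 0.048% of genes called. The female M-Z+ value was -0.33 against M+Z+ replicates 1 to 3 (adjusted p 0.146) and 0.05 against replicates 4 to 6. Female values of H19 against each set are a description, since the sets were formed after the data were seen and differ in H19. All 4 intervals lay within a log2 change of 0.5 in either direction.

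In the female M+Z+ embryos Igf2 ran from 3637 to 4135 CPM with a median of 3936 CPM. The female M-Z+ embryos had 4159.5, 3897 and 4090.3 CPM. The female M-Z- embryos had 3793, 3676, 2883 and 3894 CPM, and all 4 lay below all 3 M-Z+ females, as did 5.86% of all genes tested, in a comparison that called 0.196% of them. Of the 4, 3 lay within the M+Z+ range. In the males Igf2 was at 3777, 3840.5, 4168 and 3745 CPM in M+Z+. It was at 3806, 3786 and 3682 CPM in M-Z+ and at 3192, 3413 and 3587 CPM in M-Z-. All 3 male M-Z- embryos lay below every M+Z+ and every M-Z+ male. Of all genes tested in males, 6.36% lay below every M+Z+ male in this way and 8.74% below every M-Z+ male.

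**Figure D1:**
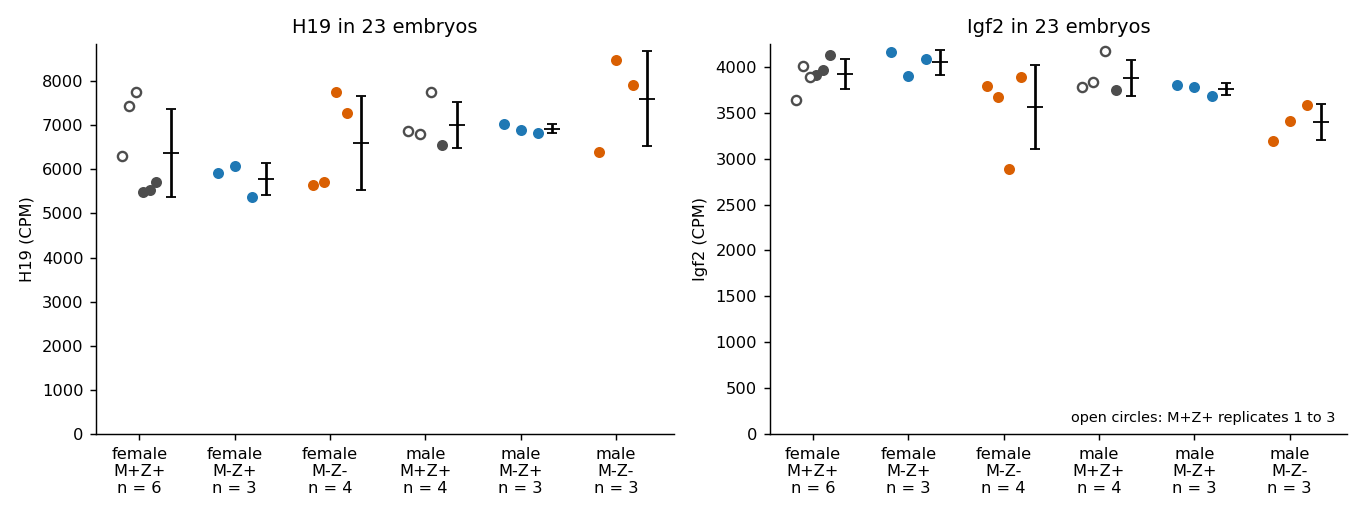
CPM of H19 (left) and Igf2 (right) in each of the 23 embryos by sex and genotype, with the mean and SD of each group as a black bar; open circles are M+Z+ replicates 1 to 3. The H19 groups overlap, and the 3 male M-Z- embryos have the lowest Igf2 of all males, at 3192 to 3587 CPM.

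Igf2 was not called in any genotype comparison either. Its log2 change in M-Z- against M+Z+ embryos was -0.14 in females (95% interval -0.29 to 0.01, adjusted p 0.354) and -0.15 in males (-0.34 to 0.03, adjusted p 0.375). Of all genes tested, 17.7% had a smaller p in the female comparison and 25.3% in the male one. With each set of M+Z+ libraries on its own the value was -0.12 and -0.16 in females, neither called. In males it was -0.18 against replicates 1 to 3, not called, and -0.08 against the single embryo of replicate 4. With single embryos left out it ran from -0.19 (adjusted p 0.241) to -0.05 (adjusted p 0.760) in females, the latter without M-Z- replicate 3, and from -0.20 to -0.095 in males. In M-Z+ against M+Z+ embryos Igf2 was at 0.03 in females (-0.13 to 0.20) and at -0.07 in males (-0.25 to 0.11). In M-Z- against M-Z+ embryos it was at -0.17 in females (-0.35 to 0.00265, adjusted p 0.581) and at -0.08 in males (-0.28 to 0.11, adjusted p 0.790), where 0.15% of genes were called in males. H19 was at 0.20 in both sexes in that comparison, with adjusted p of 0.711 and 0.625.

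By group mean, from low to high, the order of H19 was female M-Z+ (5788 ± 365 CPM, SD, n = 3), female M+Z+ (6372 ± 999, n = 6), female M-Z- (6600.5 ± 1073, n = 4), male M-Z+ (6922 ± 106, n = 3), male M+Z+ (6997 ± 521, n = 4) and male M-Z- (7604 ± 1075, n = 3). The order of Igf2 was male M-Z- (3397 ± 198 CPM, SD, n = 3), female M-Z- (3561 ± 461, n = 4), male M-Z+ (3758 ± 66.4, n = 3), male M+Z+ (3883 ± 194, n = 4), female M+Z+ (3924 ± 165, n = 6) and female M-Z+ (4049 ± 136, n = 3). In both orders every pair of neighbours overlapped and differed by less than the larger of their SDs. Between the sexes in M+Z+ the log2 difference, female minus male, was -0.14 for H19 (-0.37 to 0.10, adjusted p 0.946) and 0.01 for Igf2 (-0.13 to 0.16, adjusted p 0.986), where 0.0817% of 17139 genes were called at a log2 size of 0.3. For H19 it was 0.0092 in replicates 1 to 3 alone and -0.22 in the others. A test of whether the M-Z- change differed between the sexes gave a log2 difference of -0.11 for H19 (-0.47 to 0.25) and 0.02 for Igf2 (-0.20 to 0.24), female minus male. The same test for M-Z+ gave -0.12 and 0.10. Of all genes 0% was called in either test by edgeR and 0 by DESeq2, with 1107 and 625 genes at an unadjusted p below 0.05 in edgeR.

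In the Dlk1-Dio3 domain of the same libraries the matching genes were called. Meg3, the maternally expressed noncoding RNA of that domain, was at 905 to 1043 CPM in female M+Z+ embryos and at 1771, 1746, 1924 and 2658 CPM in female M-Z- embryos. It rose, with a log2 change of 1.05 in females and 1.36 in males (adjusted p 3.34e-06 and 0.00514). The male value was 0.80, and not called, against M+Z+ replicate 4 alone, which had 1466 CPM of Meg3 against 744 to 956 CPM in the other M+Z+ males. In M-Z+ embryos Meg3 was at 0.35 in females (edgeR adjusted p 0.705) and at 0.48 in males (edgeR adjusted p 0.606), neither called. With the replicate numbers as a block the male M-Z+ value was 0.74, which was called (edgeR adjusted p 0.0435). Dlk1 is a paternally expressed gene for a membrane protein of growth and differentiation. It was at 548 to 793 CPM in female M+Z+ embryos and at 104 to 132 CPM in female M-Z- embryos. It fell in both sexes, with a log2 change of -2.46 in females and -2.43 in males (adjusted p 1.25e-09 and 7.9e-06). Of the 8 genes listed for the domain, 3 rose and 4 fell in females, and 3 rose and 3 fell in males, beside 0.563% and 0.39% of all genes called in either direction. Rasgrf1, which sits at the other paternally methylated region tested here, fell by 1.69 in females (adjusted p 0.0131) from a low level of 0.936 ± 0.148 CPM (SD, n = 6). The female call was lost against M+Z+ replicates 4 to 6 alone (adjusted p 0.0563), without M-Z- replicate 2 (-1.50, adjusted p 0.0616) and with the replicate numbers as a block (-1.68, adjusted p 0.144). In males the log2 change of Rasgrf1 was -0.92 (adjusted p 0.291), and leaving out M-Z- replicate 3 gave -1.69, which was called (adjusted p 0.0365).

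**Figure D2:**
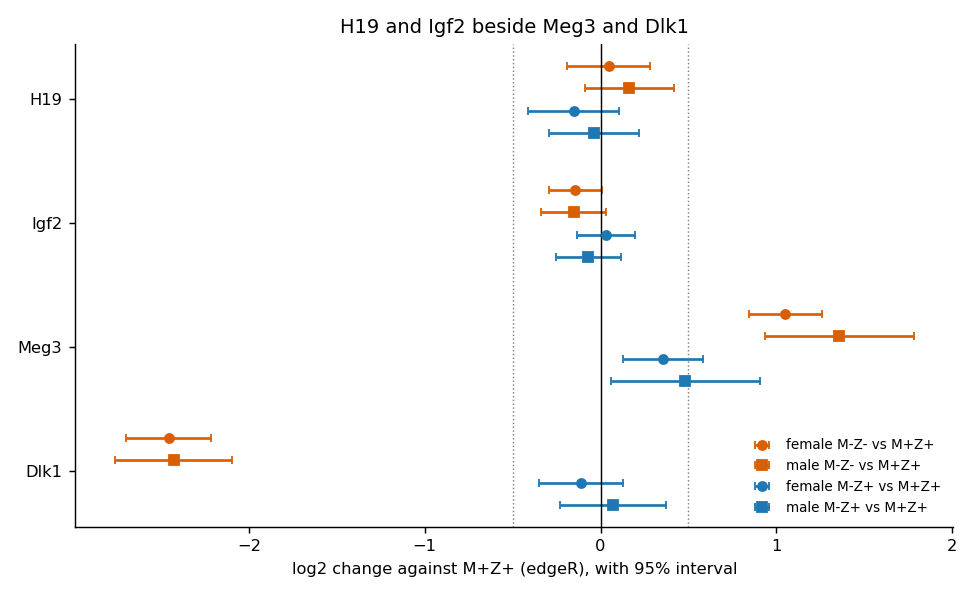
Log2 change against M+Z+ embryos of the same sex by edgeR, with its 95% interval, for H19, Igf2, Meg3 and Dlk1; circles are females, squares are males, orange is M-Z- and blue is M-Z+, and dotted lines mark the size of 0.5 needed for a call. All intervals of H19 and Igf2 lie between -0.5 and 0.5, while Dlk1 in M-Z- embryos is at -2.46 and -2.43.

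The difference between the 2 domains was tested in each embryo as a log2 ratio of CPM with a pseudocount of 0.5 CPM. The tests shared their M+Z+ embryos, and p-values were adjusted over the 4 tests of each ratio. For these embryos the paper had already listed Meg3 as increased and Dlk1 as decreased in M-Z-. With H19 and Igf2 not called, the M-Z- shifts of the ratios largely restate those changes. The p-values of the M-Z- ratios are therefore a description and not independent support for a difference between the domains. H19 over Meg3, the 2 noncoding RNAs, was 2.45 to 3.04 in female M+Z+ embryos and 1.45 to 2.01 in female M-Z- embryos. The groups did not overlap, and the mean was lower by 0.98 in M-Z- (exact two-sided permutation p 0.00476, adjusted 0.019). In males the difference was -1.25 (exact permutation p 0.0571, adjusted 0.0762), and the groups did not overlap. Against M+Z+ replicates 1 to 3 and against the others, the M-Z- difference was -1.19 and -0.77 in females and -1.49 and -0.52 in males, the last against the single embryo of replicate 4. In female M-Z+ embryos it was -0.49 (exact permutation p 0.0238, adjusted 0.0476), and this call was lost when any 1 of the 9 embryos was left out (exact permutation p 0.0357 to 0.0714, adjusted 0.0714 to 0.0952), while the difference stayed at -0.57 to -0.41. With 2 M-Z+ embryos the smallest possible exact p is 0.0357, so the loss without an M-Z+ embryo says nothing about the stability of the difference. The male M-Z+ difference was -0.57 (exact permutation p 0.2). It was -0.81 against M+Z+ replicates 1 to 3 (exact permutation p 0.1, the smallest possible) and 0.16 against replicate 4 alone. Igf2 over Dlk1, the 2 protein-coding genes, was 2.29 to 2.83 in female M+Z+ embryos and 4.59 to 5.14 in female M-Z- embryos, a difference of 2.29 (exact permutation p 0.00476, adjusted 0.019). In males it was 2.33 to 2.61 in M+Z+ and 4.43 to 4.99 in M-Z-, also a difference of 2.29 (exact permutation p 0.0286, the smallest this design allows, adjusted 0.0571). The M-Z+ differences of Igf2 over Dlk1 were 0.14 in females and -0.15 in males, with exact permutation p of 0.393 and 0.257.

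**Figure D3:**
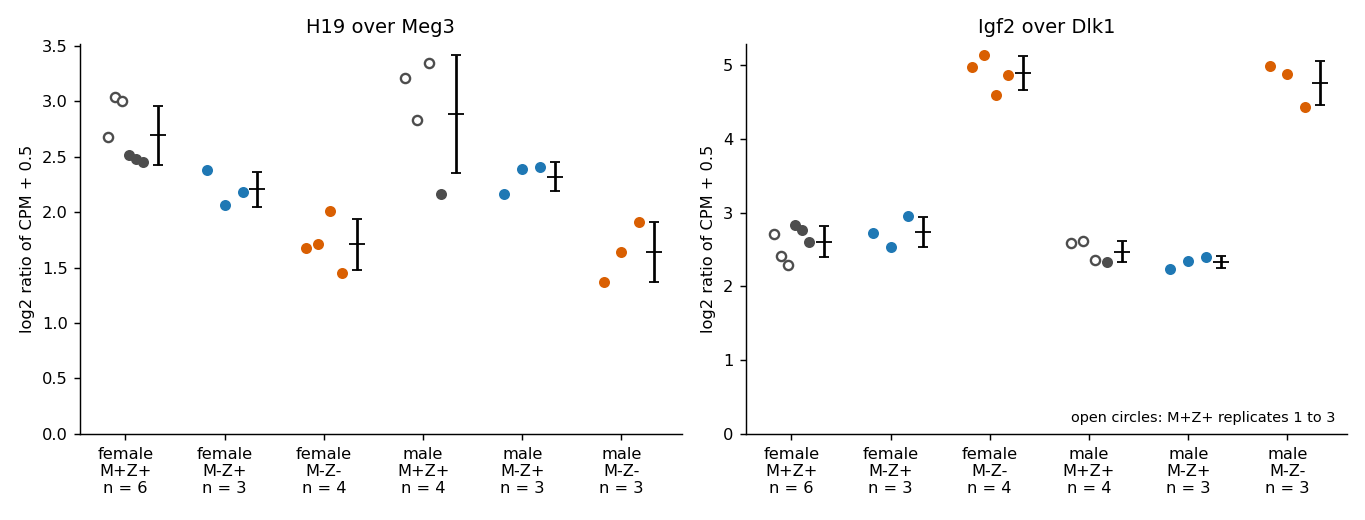
Log2 ratio of H19 to Meg3 (left) and of Igf2 to Dlk1 (right) in each embryo, from CPM with 0.5 CPM added, with the mean and SD of each group as a black bar; open circles are M+Z+ replicates 1 to 3. Igf2 over Dlk1 is 4.43 to 5.14 in all 7 M-Z- embryos, above the 16 other embryos.

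The balance of H19 against Igf2 does not depend on library scaling. This ratio was chosen after the values were seen, so its p-values are a description. In males H19 over Igf2 was 0.81 to 0.90 on the log2 scale in M+Z+, 0.87 to 0.89 in M-Z+ and 1.00, 1.31 and 1.14 in M-Z-. The 3 male M-Z- embryos were above all other males, by a mean of 0.31 over M+Z+ (exact permutation p 0.0286, the smallest possible, adjusted 0.171 over 6 tests). It did not pass the correction, which the smallest possible p could not do alone among 6 tests at this number of embryos. Against M-Z+ males it was 0.27 (exact permutation p 0.1, the smallest possible). In the female M+Z+ embryos the ratio was 0.79 to 0.99 in replicates 1 to 3 and 0.46 to 0.49 in replicates 4 to 6. The female M-Z- embryos had 0.57, 0.64, 1.43 and 0.90, and replicate 3, with the highest value, had the lowest Igf2 of all embryos. Their mean was 0.20 above M+Z+ (exact permutation p 0.352), and it was -0.0079 against M+Z+ replicates 1 to 3 and 0.41 against replicates 4 to 6. All 4 lay above M+Z+ replicates 4 to 6 and overlapped replicates 1 to 3.

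**Figure D4:**
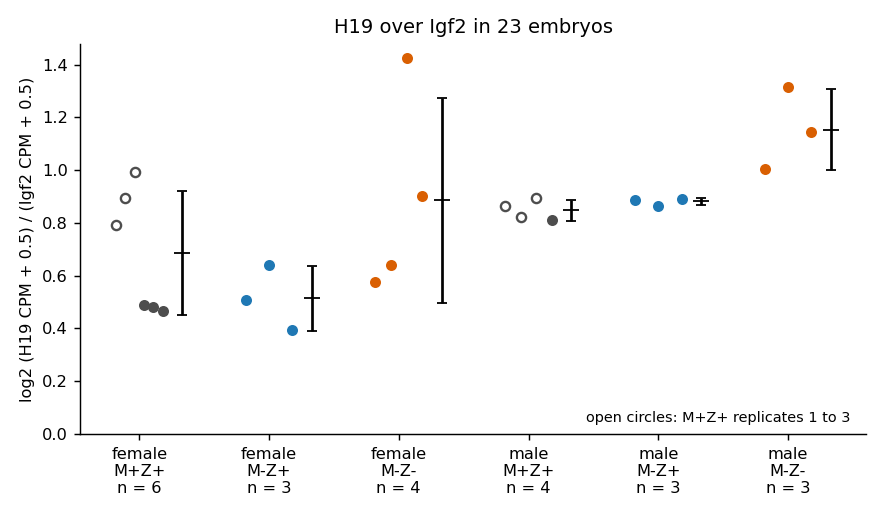
Log2 ratio of H19 to Igf2 in each embryo, from CPM with 0.5 CPM added, with the mean and SD of each group as a black bar; open circles are M+Z+ replicates 1 to 3. The male M-Z- embryos lie at 1.00 to 1.31, above the other males, and the female M+Z+ embryos form 2 sets.

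Across the 23 embryos log2 H19 and log2 Igf2 had Pearson's r of -0.26 (permutation p 0.243) and Spearman's rho of -0.23 (permutation p 0.293). Without the 2 embryos farthest from the median of H19, r was -0.21 (permutation p 0.367). Within the 6 female M+Z+ embryos r was 0.055 (exact permutation p 0.921), and after removal of the group means it was -0.00088. Of 15503 genes at a mean of 1 CPM or more, the 5 most alike to H19 by r were Bag1 (0.93), Erp29 (0.93), Tnnt2 (0.92), Rcn3 (0.91) and Mir675 (0.91), the last of which shares its reads. The 5 most alike to Igf2 were Xk (0.79), Ncoa7 (0.78), Rb1 (0.78), Cat (0.77) and Mindy2 (0.75). Igf2 was number 11176 in likeness to H19.

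No read on H19 or Igf2 was assigned to a parent. The allelic tables list both genes at 0 maternal and 0 paternal reads in all 23 embryos, although the total tables hold 2717880 reads of H19 and 1548054 reads of Igf2. A count of 0 allows up to 3 reads, or 0.00011% of the H19 reads and 0.000194% of the Igf2 reads. This covers counting error only, as it does for all such limits here. The paternal share and the P-score, which is that share minus 0.5 and needs more than 10 reads, were therefore not defined for either gene, and whether H19 stayed maternal and Igf2 paternal in the M-Z- embryos was not detectable in these tables. For comparison, 22.1% of Meg3 reads and 16.8% of Dlk1 reads were assigned. The paternal share of Meg3 was 0.532% ± 0.240 (SD, n = 6) in M+Z+ females and 51.1% ± 0.314 (n = 4) in M-Z- females. The paternal share of Dlk1 was 92.0% ± 0.649 (n = 6) and 53.5% ± 2.46 (n = 4) in the same groups. In males Meg3 went from 0.208% ± 0.137 (n = 4) to 52.9% ± 0.627 (n = 3), and Dlk1 from 91.9% ± 1.02 (n = 4) to 49.8% ± 3.72 (n = 3). In M-Z+ embryos the paternal share of Meg3 was 4.33% ± 5.21 (SD, n = 3) in females, up to 10.3% in one embryo, and 2.55% ± 1.85 (n = 3) in males, up to 3.67%. That of Dlk1 was 92.2% ± 0.571 and 92.5% ± 0.0791 (n = 3 each).

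The lack of allele reads extended beyond the 2 genes. Among the 12092 genes on autosomes whose mean was 100 counts or more, 32.5% had 0 allele-assigned reads, and the median gene had 2.78% of its reads assigned. Of the 6 genes with at least as many reads as Igf2, only H19 and Igf2 had none. Around them ran a stretch of 2.6 Mb with 47 such genes that all had under 2% of their reads assigned, 39 of them 0. It ended at Ifitm2, 1620 kb beyond H19, with 99.7% assigned, and at Cars, 890.4 kb beyond Igf2, with 14.3%. Ifitm2 lies beside its relatives Ifitm1 and Ifitm3, so its counts may be uncertain, which was not tested. Over the autosomes there were 1709 stretches of genes under 2%, with a median of 2 genes, and 1 was longer than this one. Within the stretch Kcnq1ot1, the paternally expressed noncoding RNA of the neighbouring imprinted domain, had 310 allele reads, of which 308 were paternal. Both of its maternal reads were in a single male M-Z- embryo, which did not have more than 10 allele reads on the gene. The 2 other embryos of that group were at 100% paternal. Igf2os had 41 allele reads, 23 paternal and 18 maternal. Cdkn1c, a growth inhibitor of the Kcnq1ot1 domain, had 0.

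**Figure D5:**
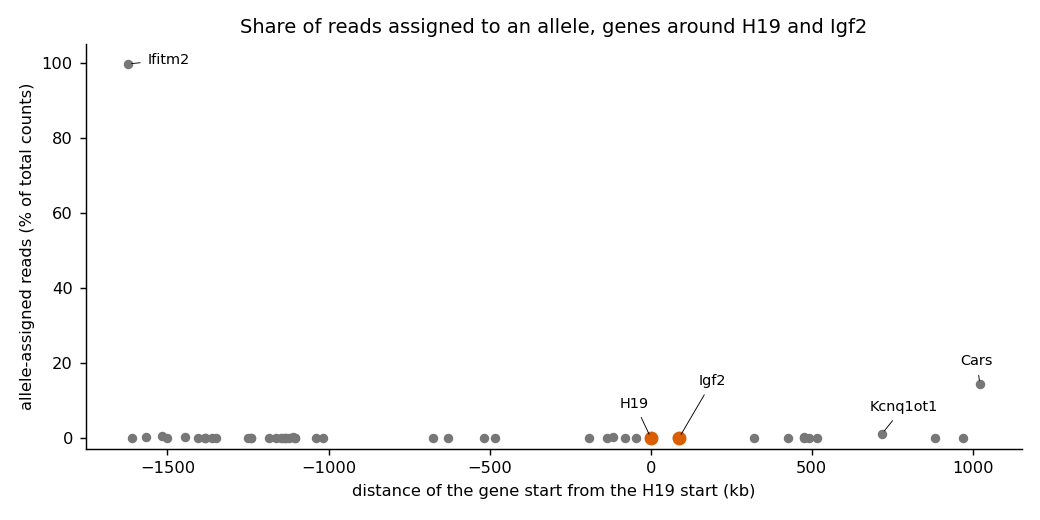
Allele-assigned reads as a percent of the total counts over 23 embryos for genes with a mean of at least 100 counts, against the distance of each gene's start from that of H19 in kb; H19 and Igf2 are orange. The 47 genes between Ifitm2 (99.7%) and Cars (14.3%) all lie under 2%.

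Of the transcripts inside the 2 genes, Mir675 was counted from reads over that part of H19, which are not mature miRNA. It had 9278 to 17915 counts per embryo and log2 changes of -0.12 in female and 0.01 in male M-Z- embryos, neither called. The sign in females turned with the M+Z+ set, and the sets were told apart by the share of Mir675, so these values are a description. The M-Z- females had 564 to 703 CPM, M+Z+ replicates 1 to 3 had 710 to 871 CPM and replicates 4 to 6 had 519 to 562 CPM. The log2 change was -0.38 against the first set (adjusted p 0.0226, short of the size of 0.5) and 0.21 against the second (adjusted p 0.153). Mir483, in the intron of Igf2, was at 1.10 ± 0.273 CPM (SD, n = 6) in M+Z+ females, and its log2 change was -0.07 in females and -1.01 in males, neither called. The male value was -0.37 with M+Z+ replicate 2 left out and -0.53 with M-Z- replicate 2 left out, and male M-Z- embryos had only 2 to 16 counts of it. Igf2os was at 42.8 ± 3.22 CPM (SD, n = 6) in M+Z+ females, and its log2 change was 0.05 in female and -0.17 in male M-Z- embryos, neither called. Ins2, the insulin gene next to Igf2, was at or under 0.264 CPM in every embryo.

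The list of neighbours runs from Ctsd to Tssc4 and holds 18 genes in the tables, H19 and Igf2 among them. Of these 14 were tested in females and 15 in males, and 0 were called in any of the 6 genotype comparisons, in which 0.048% to 0.563% of all genes were called. The median log2 change in M-Z- embryos was -0.09 in females and 0.04 in males, beside -0.0036 and 0.0017 over all genes. The highest in males was Ascl2, a transcription factor of the placenta, at 2.38 (edgeR adjusted p 0.0831). In females the highest of the 14 genes tested was at 0.11. Of the 5 genes of the Kcnq1ot1 domain 0 were called, and Cdkn1c was at 0.16 in females and 0.13 in males.

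In the IGF pathway 22 of 23 listed genes were tested. In female M-Z- embryos 2 fell, 0 rose and 20 were not called, beside 0.563% of all genes called. Igf2r, the receptor that clears IGF2 and is itself imprinted, fell by 0.61 (adjusted p 0.000198), and Irs4, an adaptor of the insulin and IGF receptors, fell by 0.58 (adjusted p 0.0336). The Irs4 call was lost against each set of M+Z+ libraries alone, where the log2 change was -0.60 and -0.55 (adjusted p 0.0520 and 0.132). It was also lost with the replicate block (log2 change -0.59, adjusted p 0.210). Leaving out M+Z+ replicate 1, 2, 3 or 6 or M-Z- replicate 1, 2 or 4 lost it too (adjusted p 0.0513 to 0.119). The log2 change was then -0.59 to -0.52, so its size changed little. In males 0 of the 22 were called, beside 0.39% of all genes, and Igf2r was at -0.31 (adjusted p 0.157). Igf1r, the receptor through which IGF2 signals, was at -0.15 and 0.05 in females and males, and Igf1, the related ligand, at -0.17 and -0.23, none called. The list median was -0.07 in females and 0.04 in males. In M-Z+ embryos 0 of the 22 were called in either sex, beside 0.0593% of all genes in females and 0.048% in males.

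Among listed regulators of imprints, Zfp57 was lower and Plagl1, an imprinted transcription factor with Igf2 among its described targets, was higher in M-Z- embryos of both sexes. Plagl1 rose, with a log2 change of 1.00 in females and 1.10 in males (adjusted p 2.12e-08 and 5.25e-05). Against the single embryo of M+Z+ replicate 4 the male values were 0.93 for Plagl1 and -1.14 for Zfp57. Neither was called there, which with 1 embryo says nothing about the stability of the changes. The other tested members, which include Ctcf, Zfp445 and Dnmt1, were not called. Of the 15 genes listed for the imprinted gene network that includes H19 and Igf2, 6 rose and 3 fell in female M-Z- embryos, and 6 rose and 2 fell in males, beside 0.563% and 0.39% of all genes called in either direction. The list median was -0.03 in females and 0.11 in males.

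H19 and Igf2 are both abundant in fetal liver and muscle, so markers of tissues were read in the same libraries. The 10 liver markers had a median log2 change of -0.70 in female and -0.80 in male M-Z- embryos, and 1 of the 10 (Hpd) was called in each sex, beside 0.563% and 0.39% of all genes. The male call of Hpd was lost against the single embryo of M+Z+ replicate 4, which says nothing about its stability. Their summed level was 3389 to 7438 CPM in female M+Z+ and 2556 to 4221 CPM in female M-Z- embryos, and 4815 to 6993 CPM and 1778 to 4661 CPM in the males. The 10 skeletal muscle markers had medians of -0.19 and -0.04 and the 6 cartilage markers -0.39 and -0.21, with 0 called. The 6 neural markers had -0.14 and -0.12, and the 5 erythroid markers in the tables -0.42 and 0.0029, with 0 called. The summed erythroid level was 8966 to 15426 CPM in female M+Z+ and 9529 to 12156 CPM in female M-Z- embryos, and 10806 to 13397 CPM and 13992 to 29861 CPM in the males. The 10 markers of placenta and yolk sac summed to 3.14 to 6.70 CPM, with Prl2c2 at 0 in all embryos. The part of tissue make-up in the values of H19 and Igf2 was not tested.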

How the data were processed

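RNA of 23 whole embryos was sequenced, one library per embryo, and embryos were grouped by the sex and genotype of the labels. The deposited tables of total expression held raw read counts per gene, which the authors made by trimming, alignment with STAR (2.7.8a) to mm9, in which reads with a single match over their whole length were kept, and counting with featureCounts of Subread (2.0.1) on the UCSC mm9 annotation. A read over several genes was counted for each, so Mir675 shares the reads of H19. Counting was set to be strand-specific, while the kit named in the labels does not mark strand, so reads cannot be told apart where Igf2 and Igf2os overlap. The deposited allelic tables held raw counts per parental allele, which the authors made with GATK, an mm9 genome masked at variants, STAR, SNPsplit and featureCounts. Exon lengths per gene were deposited as well and served only for TPM. Columns headed WT were read as M+Z+, and the allelic columns of 4 female M+Z+ embryos carried no distinct number.

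Total counts were fitted per sex with edgeR (4.0.16; limma 3.58.1, R 4.3.3): TMM, filterByExpr and the quasi-likelihood test. Genes were called at a Benjamini-Hochberg adjusted p below 0.05 and a log2 change of at least 0.5, or 0.3 between the sexes. CPM was taken over the total count, except in correlations, where it was scaled by TMM. Ratios were tested by exact permutation over embryos. The scripts were tested on simulated data. Alternatives were DESeq2 (1.42.0), other scaling, filters and samples, a replicate block and leaving out each embryo. Within groups no libraries were duplicates, since the smallest chi-square per gene between them was 2.34. The members and lists were chosen with earlier results of these data known. Genes named were H19 and Igf2, Meg3, Dlk1 and Rasgrf1 for contrast, called or defining genes of the lists, and the 5 genes most alike to each member. The planned tests of allele shares could not be run, because neither gene had allele reads.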

Additional observations from a re-analysis of the deposited data

How the results depend on the processing

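H19 and Igf2 were not called under any of 288 alternatives of the genotype and sex comparisons (smallest adjusted p 0.146 by edgeR), and 16 changed sign, 9 of them with an embryo left out. The replicate block turned H19 in female M-Z- against M+Z+ embryos to -0.041 (edgeR adjusted p 0.916) and changed no call of either gene. Same-numbered female embryos deviated together no more than others (r -0.33 to 0.286 over 10 pairs, against -0.381 to 0.4 over 44). In males r was -0.199 to 0.488 over 9 same-numbered pairs and -0.312 to 0.183 over 24 others, with medians of -0.0405 and 0.018. The male M+Z+ and M-Z- embryos of replicate 3 (r 0.488) and of replicate 1 (r 0.228) exceeded every differently numbered pair. Whether the numbers pair some of the male embryos was therefore not settled. The block moved the count of genes called from 95 to 52 (M-Z-) and from 10 to 4 (M-Z+) in females and from 65 to 128 and from 8 to 41 in the males.

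With single embryos left out, the log2 change of H19 ran from -0.036 to 0.12 in female M-Z- and from -0.071 to 0.018 in male M-Z+ embryos, the sex difference of Igf2 from -0.011 to 0.052, and the difference of the M-Z- change between the sexes from -0.23 to 0.020 for H19 and from -0.040 to 0.11 for Igf2. The ratio of H19 to Meg3 in female M-Z+ embryos ran from -0.57 to -0.41, that of Igf2 to Dlk1 in male M-Z- embryos from 2.18 to 2.46 and that of H19 to Igf2 there from 0.23 to 0.38. In both male ratios the exact p was then 0.0667 or 0.1, the smallest possible.

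The split of the M+Z+ embryos was added after the data were seen. Against replicates 1 to 3 alone the values were -0.13 for H19 in female M-Z- embryos, 0.0092 for the sex difference of H19 and -0.027 for that of Igf2, -0.70 for H19 over Meg3 in female M-Z+ embryos, -0.0079 for H19 over Igf2 in female M-Z- embryos, and 2.25 for Igf2 over Dlk1 and 0.29 for H19 over Igf2 in male M-Z- embryos. Against replicates 4 and above they were 0.052 for H19 in female M-Z+, 0.078 for H19 and 0.0066 for Igf2 in male M-Z+, -0.27 and 0.16 for H19 over Meg3 in female and male M-Z+, 0.035 for H19 over Igf2 in female M-Z+, and 2.43 for Igf2 over Dlk1 and 0.34 for H19 over Igf2 in male M-Z- embryos. The correlation of H19 with Igf2 was 0.055 within female M+Z+ embryos. The causes were not tested.

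Genes called in the M-Z- females numbered 95, and 226 and 67 against each M+Z+ set, 148 by DESeq2 and 212 with no minimum size. In M-Z+ females they numbered 10, and 78 against the first set, 15 by DESeq2 and 3 from a fit of both groups alone. In M-Z- males they numbered 65, and 144 and 3 against each set, 184 by DESeq2, 99 with no filter, 40 from a fit of both groups alone and 275 from a fit of all embryos. In the M-Z+ males they numbered 8, and 54 and 0 against each set and 13 by DESeq2. In M-Z- against M-Z+ males they numbered 25, and 57 by DESeq2, 16 from a fit of both groups alone and 48 from a fit of all embryos. With single embryos left out, the count in M-Z- males was 899 without M-Z- replicate 3, 144 with M+Z+ replicate 4 out, 41 with M+Z+ replicate 1 or 2 out and 45 to 92 otherwise. Against M-Z+ males it was 376 without M-Z- replicate 3 and 17 to 22 otherwise. In M-Z+ males edgeR called 0 without M+Z+ replicate 1 or 2 or M-Z+ replicate 2 or 3 (190 to 285 genes past size 0.5 at an unadjusted p below 0.05), 3 with M-Z+ replicate 1 out, 4 with M+Z+ replicate 3 out and 54 with M+Z+ replicate 4 out. In M-Z- females it called 55 without M-Z- replicate 2, and in M-Z+ females 5 (M+Z+ replicate 6 or M-Z+ replicate 1 out), 6 (M+Z+ replicate 5 out) or 8 to 12. Settings intended for allele shares, shifts and output were not run, as neither gene had an allele read. Depth did not limit levels, with 50498 counts or more of each gene per embryo.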
